A study of Homo sapiens with 2 samples.

Results

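The 38 genes described here are p53 target genes other than CDKN1A and MDM2, chosen by name and grouped by role into cell cycle arrest and p53 feedback, death receptors, mitochondrial and other death genes, repair and nucleotide supply, metabolism with redox and stress control, and secreted, surface and other proteins. A549 cells come from a human lung adenocarcinoma, and paclitaxel is a drug that stabilises microtubules and disturbs the mitotic spindle. A549 cells in F12K medium with serum received the solvent DMSO (A549_control) or 7.22 nM paclitaxel (A549_paclitaxel) for 72 h, and RNA of 1 library per group was sequenced. Both groups are the same line, for which the labels name no altered allele, and p53 binding was not measured. With 1 library per group there was no replicate check, so no test was made, and every value below compares 2 libraries. The expression table holds 993 transcripts of 812 genes, those that passed the authors' own test. Of the 38 p53 target genes, 20 had a transcript in that table and 18 were not among the listed transcripts, so whether these 18 differed cannot be read from it.

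p53 is a transcription factor that is held at a low level by the ubiquitin ligase MDM2 and accumulates when DNA is damaged or mitosis fails. It binds a response element made of 2 copies of a 10-base sequence in or near its target genes. Some targets halt the cell cycle, some sensitise the cell to death signals from the surface or from mitochondria, some repair DNA or adjust metabolism, and some restrain p53 itself. FPKM, the unit of the table, counts sequenced fragments scaled by transcript length and by the mapped total of the library, so levels of different genes can be set side by side per length. A gene with several listed transcripts is given the value of the one whose FPKM reached highest in any library, and "higher" and "lower" refer to the paclitaxel library against the DMSO library.

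All 20 listed p53 target genes were higher with paclitaxel by at least 2-fold and 0 were lower, where 49.0% of all listed genes were higher by that fold (398 of 812). The gene list was chosen with earlier results of these data known, so this contrast is a description only. At least 4-fold was reached by 16 of the 20, against 43.1% of all listed genes. Counted as transcripts, 27 of 27 were higher by at least 2-fold and 23 by at least 4-fold, against 46.1% and 41.1% of all listed transcripts. Every listed gene differs strongly by construction, since the smallest log2 ratio in the table is 1.52 in size, so direction is what varies among the listed genes. The median log2 ratio was 2.52 over the 19 p53 targets with a ratio, -1.72 over all listed genes, and 2.92 over the listed genes that were higher. Over transcripts the median was 2.91 for the p53 targets and 2.92 for all listed transcripts that were higher. CYFIP2 was listed at 0 with DMSO and has no ratio.

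**Figure D1:**
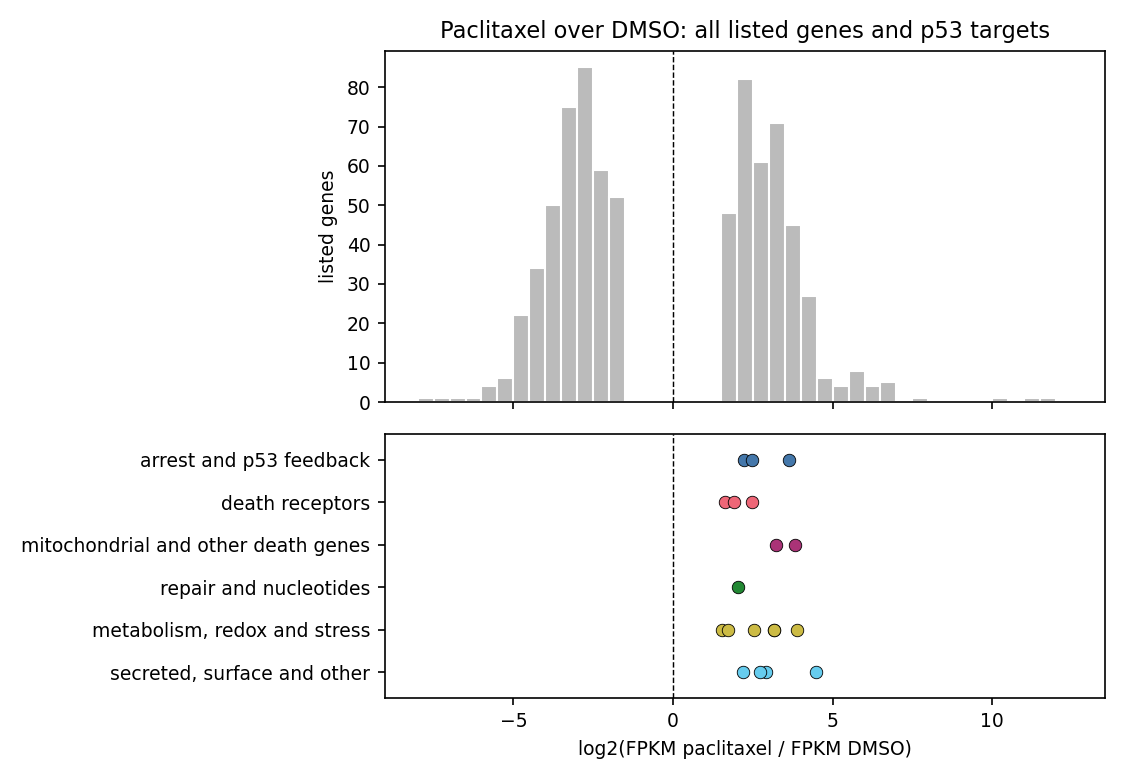
Log2 ratio of FPKM, paclitaxel over DMSO (x axis), for all listed genes with a ratio as a histogram (upper panel, number of genes) and for the listed p53 target genes as points by role (lower panel). The table holds no gene near 0, and the 19 p53 target genes with a ratio lie between 1.54 (TIGAR) and 4.49 (TRIM22), all to the right of 0.

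The levels of the 20 genes spanned a wide range in both libraries. Their median was 3.34 FPKM under DMSO and 15.7 FPKM under paclitaxel, while the median of all listed genes was 3.58 and 2.89 FPKM. With DMSO, 6 of the 20 lay under 1 FPKM and 5 lay at 10 FPKM or more. With paclitaxel 0 lay under 1 FPKM and 13 lay at 10 FPKM or more, and 8 of the 20 were among the 100 listed genes with the highest paclitaxel level. All 20 were higher with paclitaxel, while 414 of the 812 listed genes were lower. The medians of all listed genes and the rank thus do not compare like genes. Summed over the 20 genes the level was 121.9 FPKM under DMSO and 607.6 FPKM under paclitaxel, of which GDF15 alone gave 26.1%.

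**Figure D2:**
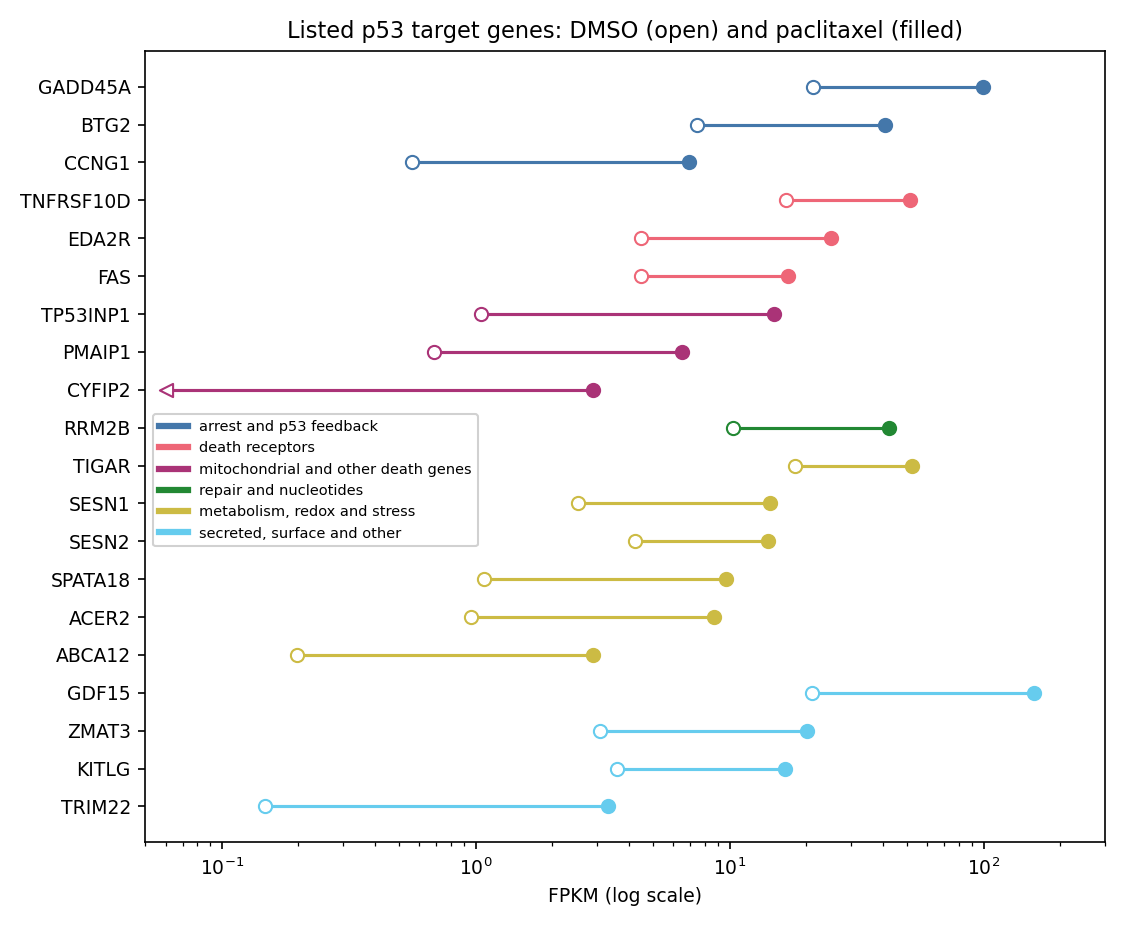
FPKM (log scale) of the 20 listed p53 target genes in the DMSO library (open circles) and the paclitaxel library (filled circles), 1 library each, coloured by role; the arrow for CYFIP2 marks a value listed at 0. Each filled circle lies to the right of its open circle, from 2.90 FPKM for CYFIP2 and ABCA12 up to 158 FPKM for GDF15.

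Of the 6 genes of arrest and p53 feedback, 3 were listed, and all 3 were at least 4-fold higher, with a median log2 ratio of 2.47. GADD45A encodes a small stress protein that binds the CDK1 and cyclin B kinase, PCNA and p38-activating kinases. Its main transcript (ENST00000370986, chr1:67685201-67688334 for the gene in GENCODE 44, plus strand, hg38) stood at 21.4 FPKM under DMSO and 99.3 FPKM under paclitaxel, a log2 ratio of 2.22. GADD45A was the highest of the 20 genes with DMSO and second to GDF15 with paclitaxel. BTG2 encodes an antiproliferative protein that recruits mRNA deadenylases. BTG2 (chr1:203305491-203309602, plus strand) was at 7.42 FPKM under DMSO and 41.0 FPKM under paclitaxel, a log2 ratio of 2.47. CCNG1 encodes cyclin G1, which binds a phosphatase that acts on MDM2 and so belongs to p53 feedback. CCNG1 (chr5:163437569-163446151, plus strand) was low with DMSO at 0.561 FPKM and reached 6.92 FPKM with paclitaxel, a log2 ratio of 3.63. Its listed transcript (ENST00000393929) is not in GENCODE 44, so its exons could not be checked. The polo-like kinases PLK2 and PLK3 and the phosphatase PPM1D, which dephosphorylates p53 and its activating kinases, were not among the listed transcripts.

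Among the 5 death receptor genes 3 were listed, all 3 higher, and EDA2R was the one above 4-fold by its highest transcript. FAS encodes the receptor of FAS ligand, whose intracellular death domain starts the caspase cascade. Its transcript ENST00000355740 was at 4.47 FPKM under DMSO and 17.0 FPKM under paclitaxel, a log2 ratio of 1.93. Besides it, ENST00000352159 was at 1.68 and 8.70 FPKM and ENST00000612663 at 0.998 and 12.2 FPKM, so all 3 listed FAS transcripts were higher with paclitaxel. Summed over the 3, the log2 ratio of FAS was 2.40. TNFRSF10D, a decoy receptor that binds the death ligand TRAIL without a complete death domain, was at 16.7 FPKM under DMSO and 51.3 FPKM under paclitaxel, a log2 ratio of 1.62. EDA2R, a receptor for an ectodysplasin isoform (chrX:66595637-66639298, minus strand), was at 4.48 FPKM under DMSO and 25.1 FPKM under paclitaxel, a log2 ratio of 2.49. TNFRSF10B, the TRAIL receptor that does carry a death domain, and the decoy TNFRSF10C were not among the listed transcripts, so of the TRAIL receptors in the list a decoy receptor is the only gene with a value here.

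None of the listed FAS transcripts is the MANE Select transcript, the reference isoform chosen jointly by RefSeq and Ensembl. The exon structures given here are those of GENCODE 44, which can differ from the models behind the authors' FPKM. MANE Select FAS (chr10:88953813-89029605 for the gene, plus strand) has 9 exons, and ENST00000355740 has 8 because it lacks exon 7 of 83 bases (chr10:89011999-89012081). The length of that exon is not a multiple of 3, and the annotated coding sequence of ENST00000355740 is 591 bases against 1005 bases in MANE Select, so its annotated reading frame ends before exon 9, the exon known to encode the death domain. ENST00000612663 keeps exon 7 and adds an exon of 137 bases (chr10:89012199-89012335), and GENCODE types it as a target of nonsense-mediated decay, the pathway that degrades mRNA with an early stop codon. ENST00000352159 is not in GENCODE 44, so its exons could not be checked. In the DMSO library ENST00000355740 took 62.5% of the FPKM of the 3 listed FAS transcripts, and in the paclitaxel library 44.9%. The share of ENST00000612663 was 14.0% with DMSO and 32.2% with paclitaxel, while that of ENST00000352159 was 23.5% and 23.0%. Within the listed FAS transcripts the decay-typed form thus had the larger share with paclitaxel, and no value for MANE Select FAS stands beside it. The exon that ENST00000355740 lacks and the short exon that follows it, which is also in the table of skipped exons (25 bases, chr10:89013343-89013367), are shown with the exon in capitals and 10 intron bases on each side in lower case (hg38, plus strand).
FAS exon 7: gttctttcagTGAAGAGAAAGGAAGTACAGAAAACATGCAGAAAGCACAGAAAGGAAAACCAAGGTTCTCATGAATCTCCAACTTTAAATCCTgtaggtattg
FAS exon 8: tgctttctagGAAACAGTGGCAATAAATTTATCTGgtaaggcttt
Both exons are bounded by ag before and gt after, the usual splice site bases. The gene ACTA2, which lies on the opposite strand of the same locus, was also higher, at 6.23 FPKM under DMSO and 34.5 FPKM under paclitaxel. The sources used here do not say whether reads were counted by strand, so reads of overlapping genes on opposite strands cannot be told apart.

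The group of mitochondrial and other death genes holds 9 genes, of which 3 were listed and all 3 were higher. PMAIP1 encodes NOXA, a BH3-only protein that neutralises the survival factor MCL1. PMAIP1 (chr18:59899996-59904305, plus strand) was at 0.688 FPKM under DMSO and 6.46 FPKM under paclitaxel, a log2 ratio of 3.23. The listed transcript (ENST00000269518) has 3 exons where MANE Select has 2, and its annotated coding sequence is 408 bases against 162 bases. The added exon of 151 bases (chr18:59900428-59900578), also present in the table of skipped exons, is shown because it separates the measured transcript from the one that encodes the usual NOXA protein (hg38, plus strand, exon in capitals).
PMAIP1 added exon: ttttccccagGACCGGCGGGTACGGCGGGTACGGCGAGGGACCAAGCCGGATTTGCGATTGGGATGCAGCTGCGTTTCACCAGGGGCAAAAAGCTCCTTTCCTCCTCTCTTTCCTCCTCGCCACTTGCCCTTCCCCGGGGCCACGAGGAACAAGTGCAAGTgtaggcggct
TP53INP1 encodes a nuclear stress protein that takes part in p53 phosphorylation and in autophagy. Its transcript ENST00000448464 was at 1.05 FPKM under DMSO and 14.9 FPKM under paclitaxel, a log2 ratio of 3.82, and its MANE Select transcript ENST00000342697 at 1.54 and 14.1 FPKM, a log2 ratio of 3.20. Both TP53INP1 transcripts were higher, and the one that ranked second with DMSO (40.6% of the listed FPKM of the gene) ranked first with paclitaxel (51.4%). CCNE2, assigned by the authors to the same locus, differed the other way, at 1.60 FPKM under DMSO and 0.0501 FPKM under paclitaxel. CYFIP2, a partner of the fragile X protein in the WAVE actin complex, was listed at 0 with DMSO and at 2.90 FPKM with paclitaxel (ENST00000521420, a transcript without exon 4 of the 31 MANE Select exons). The pore-forming BAX, the BH3-only gene BBC3 that encodes PUMA, PHLDA3, AEN, TRIAP1 and TRAF4 were not among the listed transcripts, so PMAIP1 is the only gene of the BCL2 family in the list with a value.

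Repair and nucleotide supply had 4 genes and 1 listed transcript, that of RRM2B. RRM2B encodes the p53-inducible small subunit of ribonucleotide reductase, which supplies deoxynucleotides outside S phase. RRM2B was at 10.3 FPKM under DMSO and 42.3 FPKM under paclitaxel, a log2 ratio of 2.04. DDB2 and XPC, which recognise DNA lesions in nucleotide excision repair, and the translesion polymerase POLH were not among the listed transcripts.

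Metabolism, redox and stress control had the most listed genes, 6 of 9, all higher, 4 of them by at least 4-fold. The sestrins SESN1 and SESN2 restrain the growth kinase mTORC1. SESN1 (chr6:108984309-109094846, minus strand) was at 2.52 FPKM under DMSO and 14.5 FPKM under paclitaxel, a log2 ratio of 2.52. SESN2 (chr1:28259518-28282491, plus strand) was at 4.25 and 14.2 FPKM, a log2 ratio of 1.74, so both sestrins stood at a similar level with paclitaxel from different levels with DMSO. The listed SESN1 transcript (ENST00000356644) begins at another exon than MANE Select and has a coding sequence of 1476 bases against 1653 bases. TIGAR encodes a fructose bisphosphatase that diverts glucose from glycolysis. TIGAR, which the table names by its older symbol C12orf5 (chr12:4307763-4360028, plus strand), was at 18.0 FPKM under DMSO and 52.3 FPKM under paclitaxel, a log2 ratio of 1.54, the lowest of the 19. SPATA18, also called Mieap, serves the quality control of mitochondria. Its MANE Select transcript (ENST00000295213) was at 1.08 FPKM under DMSO and 9.63 FPKM under paclitaxel, a log2 ratio of 3.16. ACER2, a ceramidase of the Golgi (chr9:19409009-19452505, plus strand), was at 0.960 and 8.67 FPKM, a log2 ratio of 3.17. ABCA12, a transporter of lipids known from keratinocytes (chr2:214931542-215138626, minus strand), was at 0.198 and 2.90 FPKM, a log2 ratio of 3.88. The 3 genes with the lowest levels with DMSO in this group, ABCA12, ACER2 and SPATA18, had its 3 highest ratios. This order did not hold with 1 added to each FPKM, where ABCA12 had a log2 ratio of 1.70 and SESN1 of 2.14. FDXR, which carries electrons to mitochondrial cytochromes, TP53I3, a quinone reductase, and the hydrolase CMBL were not among the listed transcripts.

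Of the 5 secreted, surface and other genes, 4 were listed, all at least 4-fold higher. GDF15 encodes a secreted cytokine of the TGF-beta superfamily that is released by stressed cells. GDF15 (chr19:18374731-18389176, plus strand) was at 21.0 FPKM under DMSO and 158 FPKM under paclitaxel, a log2 ratio of 2.91, and ranked 22 among all listed genes by its paclitaxel level. KITLG encodes stem cell factor, the ligand of the receptor KIT. Its transcript ENST00000228280 was at 3.59 FPKM under DMSO and 16.5 FPKM under paclitaxel, a log2 ratio of 2.20, and ENST00000347404 at 0.263 and 2.51 FPKM, a log2 ratio of 3.25. ENST00000228280 is not in GENCODE 44, so whether it carries a given exon could not be checked. ENST00000347404 held 6.81% of the listed KITLG level with DMSO and 13.2% with paclitaxel. It lacks exon 6 of 10 (84 bases, chr12:88515534-88515617), known to encode the stretch in which the membrane-bound factor is cleaved to its soluble form. That exon is in the table of skipped exons and is shown for this reason (hg38, minus strand, exon in capitals).
KITLG exon 6: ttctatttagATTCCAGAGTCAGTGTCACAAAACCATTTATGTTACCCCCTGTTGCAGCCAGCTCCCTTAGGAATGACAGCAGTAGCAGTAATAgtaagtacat
ZMAT3 encodes an RNA-binding zinc finger protein that acts on splicing and mRNA stability. Its MANE Select transcript (ENST00000311417) was at 3.08 FPKM under DMSO and 20.1 FPKM under paclitaxel, a log2 ratio of 2.71, and ENST00000432729 was at 1.42 and 10.6 FPKM, a log2 ratio of 2.90. TRIM22 encodes a ubiquitin ligase known for restricting viruses and induced by interferon as well as by p53. TRIM22 (chr11:5689610-5737089, plus strand) was at 0.148 FPKM under DMSO and 3.33 FPKM under paclitaxel, a log2 ratio of 4.49. This was the highest of the 19 ratios, and TRIM22 also had the lowest level above 0 with DMSO. With 1 added to each FPKM, most of the listed p53 targets stood above TRIM22 at 1.91, from TP53INP1 at 2.95 down to KITLG at 1.93. With 0.1 added, CYFIP2 stood above it (4.91 against 3.79). The adhesion protein gene NINJ1 was not among the listed transcripts.

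Several listed p53 targets lie in loci shared with other genes. In GENCODE 44, 8 of the 20 overlap a gene on the opposite strand: TRIM22 (TRIM5), TP53INP1 (NDUFAF6), FAS (ACTA2), ABCA12, SESN1, KITLG, TIGAR and CYFIP2. The part of such overlap in their values was not tested. The other 12 genes, among them GDF15, GADD45A, BTG2, RRM2B and PMAIP1, have no annotated gene on the opposite strand.

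More than 1 listed transcript was found for 6 of the 20 genes, against 16.5% of all listed genes (134 of 812). All transcripts of these 6 genes were higher with paclitaxel. Their shares moved by different amounts. For GADD45A, ENST00000370985 was at 0.594 FPKM under DMSO and 6.42 FPKM under paclitaxel, a log2 ratio of 3.44, and took 2.71% and 6.08% of the listed level. It lacks exon 2 of 4 (102 bases, chr1:67686025-67686126), an exon whose loss keeps the reading frame. For SPATA18, ENST00000419395 was at 0.443 and 3.54 FPKM, with a share of 29.2% with DMSO and 26.9% with paclitaxel. This transcript lacks exon 5 of 13, again with the frame kept, and its share differed little between the libraries. ENST00000432729 of ZMAT3 took 31.6% with DMSO and 34.5% with paclitaxel, and carries an added exon of 121 bases outside the coding sequence. The 2 SPATA18 transcripts also differ outside this exon, with 4430 bases in ENST00000295213 and 2816 bases in ENST00000419395. The SPATA18 exon is shown because it is a skipped exon of the event table that ENST00000419395 lacks (chr4:52069821-52069916, hg38, plus strand, 96 bases in capitals).
SPATA18 exon 5: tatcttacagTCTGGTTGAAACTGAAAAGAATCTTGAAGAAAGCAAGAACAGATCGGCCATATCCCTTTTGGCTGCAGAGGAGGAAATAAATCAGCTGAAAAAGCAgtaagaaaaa
FPKM values divide reads among transcripts by a model, and the error of that division is not in the table.

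**Figure D3:**
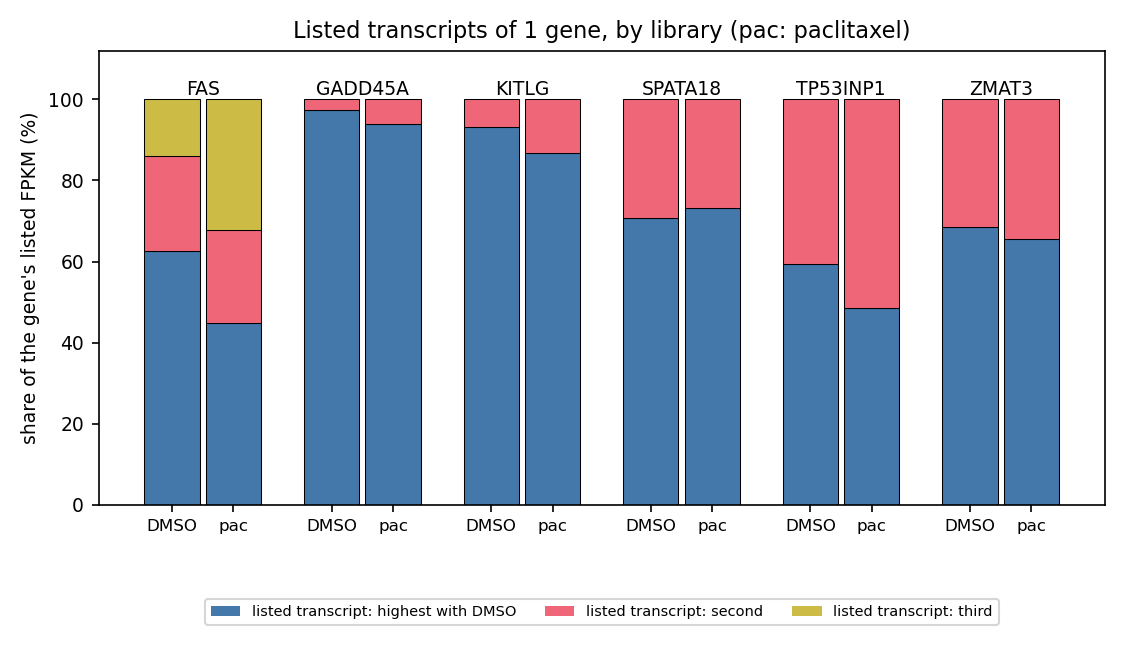
Share of each listed transcript (percent of the gene's summed listed FPKM, y axis) in the DMSO and the paclitaxel library for the 6 p53 target genes with more than 1 listed transcript, 1 library each. In FAS the transcript ENST00000612663 goes from 14.0% to 32.2%, while the bars of SPATA18 and ZMAT3 differ by few percentage points.

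Other genes of the p53 pathway were looked up from a list of 64 that holds regulators and further targets. Of these 13 were listed, 12 of them higher and 1 lower, with a median log2 ratio of 2.95. Of all listed genes 49.0% were higher by at least 2-fold (398 of 812), and the median of those was 2.92. CDKN1A, the CDK inhibitor p21, was at 77.8 FPKM under DMSO and 387 FPKM under paclitaxel, a log2 ratio of 2.32, and MDM2 (ENST00000539479) at 23.5 and 209 FPKM, a log2 ratio of 3.16. Both stood above GDF15, the highest of the 20 targets, in the paclitaxel library. ATF3, a stress transcription factor, was at 1.34 and 27.4 FPKM, FBXW7, an F-box protein that marks cyclin E for degradation, at 0.211 and 3.24 FPKM, and DUSP14, a MAP kinase phosphatase, at 1.13 and 16.5 FPKM. CD82, PRKAB1, DRAM1, SUSD6, SOD2 and TGFA were also higher. CHEK1, the checkpoint kinase, was the gene that was lower, at 6.03 FPKM under DMSO and 0.479 FPKM under paclitaxel.

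Markers of other cells were read from the same table. Of 5 red cell genes, HBA2, HBA1 and HBB were listed, with a summed level of 0.118 FPKM under DMSO and 458 FPKM under paclitaxel, and the part of this difference in the p53 target values was not tested. None of 5 leukocyte markers and none of 5 fibroblast and endothelial markers was listed. Of 7 lung epithelial markers, KRT19 was listed, at 22.9 FPKM under DMSO and 107 FPKM under paclitaxel. Only transcripts that passed the authors' test are listed, so an unlisted marker may be absent or unchanged. Cell identity could therefore not be checked on these markers. In bulk RNA fewer cells of a kind and less RNA per cell cannot be told apart.

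A promoter window was at hand for 29 of the 38 genes (RefSeq, GRCh38.p14; 250 bases before to 50 bases after a start site), 15 of them listed in the expression table. CMBL, GADD45A, PHLDA3, RRM2B, TNFRSF10B, TNFRSF10C, TNFRSF10D, TP53INP1 and TRIM22 have no entry. The p53 consensus, a palindromic motif of 20 bases in 2 copies of 10, was searched with the C and G at the core of each copy intact, no spacer and at most 2 mismatches elsewhere. It matched in AEN, DDB2 and FAS, or 10.3% of the 29 genes, while 0.359% of all 27305 genes with a window had such a match (98 genes). The 3 matches are shown with the 20 matched bases in capitals and 5 bases on each side (plus strand).
DDB2, 1 mismatch, chr11:47214969-47214988: gctccAAGCTGGTTTGAACAAGCCCtgggc
AEN, 2 mismatches, chr15:88621306-88621325: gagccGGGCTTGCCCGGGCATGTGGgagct
FAS, 2 mismatches, chr10:88991309-88991328: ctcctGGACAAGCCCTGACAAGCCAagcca
The DDB2 match spans the start site, from base -5 to base 15 of the window's gene start, within a MANE Select exon. The AEN match lies at bases -34 to -15 before the start. The FAS match lies at bases -122 to -103 before an alternative start, within intron 1 of MANE Select FAS. Of the 3 genes, FAS is listed in the expression table and DDB2 and AEN are not. With 3 mismatches allowed 7 genes matched, 24.1% of the 29 against 1.37% of all genes, and GDF15, PMAIP1, SESN1 and FDXR were the 4 that were added. A match describes the letters in this window and shows no binding. The genes were chosen as known p53 targets, so the contrast with all genes is a description only.

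The table of skipped exons lists 35827 events in 9939 genes. An event is an internal exon listed as one that can be included or left out, with its neighbours on both sides. The columns of reads and inclusion for each library carry no condition name. The exons below are thus given by identity and position, with no statement on how often they were included. Whether any reads left them out was not checked. Of the 38 p53 target genes, 33 had an event, 17 of them listed in the expression table and 16 not. The share of all genes that have an event was not computed, so this count has no background beside it. AEN, BTG2, GDF15, TRIAP1 and TRIM22 had none, and apart from TRIM22 these genes have at most 4 exons in any GENCODE transcript. In all there were 129 events over 109 distinct exons, with a median of 3 events per gene both for these genes and for all genes of the table.

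DDB2 and FDXR led with 10 distinct exons each, in 15 and 13 events, followed by SPATA18 with 7, EDA2R with 6, and KITLG, POLH and TP53I3 with 5 each. DDB2, FDXR, POLH and TP53I3 have no transcript in the expression table, so for them the event table is the only source at hand. It was read for exon positions only. The DDB2 events touch exons 3 to 9 of the 10 MANE Select exons. Of the 109 exons, 81 are exons of the MANE Select transcript, 17 lie between such exons, and 11 overlap with another edge. The whole exon is coding in MANE Select for 79, a part for 13, and none for 17. Their median length was 134 bases, against 121 bases over all 31197 distinct exons of the table, with a range of 25 to 656 bases. A length that is a multiple of 3 keeps the reading frame when an exon that is coding over its whole length is left out. It was found for 40 of the 109 exons, or 36.7%, against 41.1% of all distinct exons, and for 29 of the 79 whole-coding exons, or 36.7%.

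**Figure D4:**
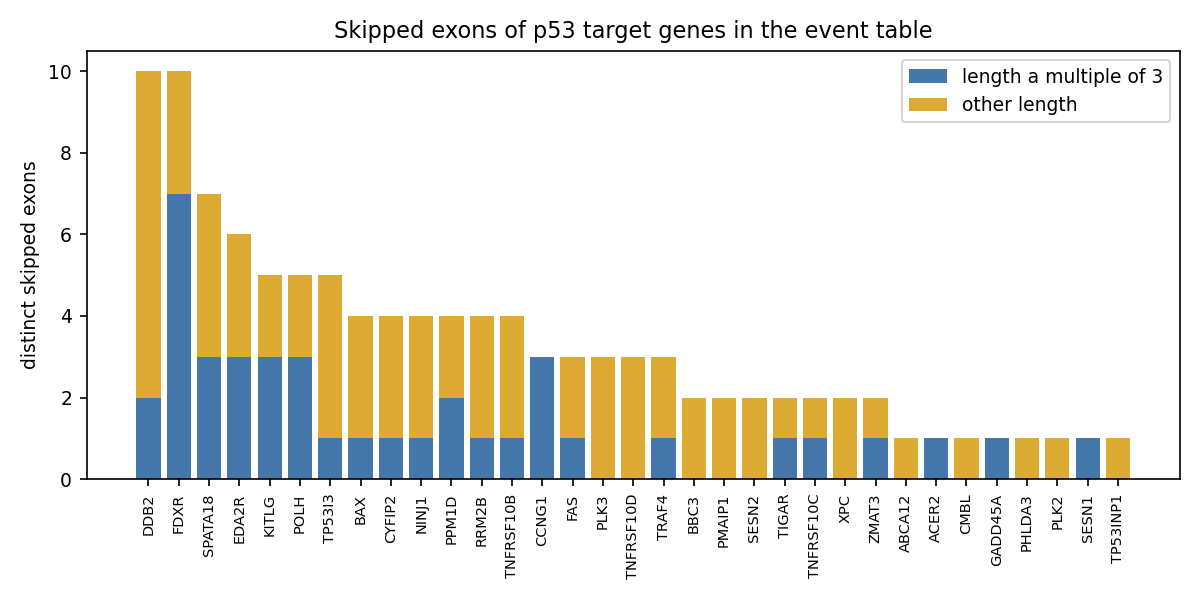
Number of distinct skipped exons (y axis) for the 33 p53 target genes with an event, split by whether the exon length is a multiple of 3. DDB2 has 10 exons of which 2 have such a length, and FDXR has 10 of which 7 do.

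The share of exons with a length that is a multiple of 3, coding or not, varied between the genes. In FDXR 7 of 10 exons and in CCNG1 3 of 3 were multiples of 3, while DDB2 had 2 of 10 and PLK3 and TNFRSF10D had 0 of 3 each. The FAS events concern exon 3 (138 bases, chr10:89007700-89007837), exon 4 (109 bases, chr10:89008889-89008997) and exon 8. Exons 4 and 8 change the frame when left out. Exon 8 with its 25 bases, printed above, was the only exon of at most 30 bases among the 109. Exon 7 of FAS, by which the listed ENST00000355740 differs from MANE Select, was not among the FAS events. In 4 genes a skipped exon of the event table separates 2 listed transcripts of the expression table: exon 2 of GADD45A, exon 5 of SPATA18, the added 38-base exon of TP53INP1 and the added 121-base exon of ZMAT3. For these genes the FPKM of the transcript with the exon and of the one without it can be given. The 2 transcripts of each gene also differ outside the exon, so these values are not levels of the exon itself. In GADD45A they have 1352 bases with the exon of 102 bases and 902 bases without it. With the exon GADD45A was at 21.4 and 99.3 FPKM and without it at 0.594 and 6.42 FPKM, DMSO first. TP53INP1 with the added exon was at 1.05 and 14.9 FPKM and without it at 1.54 and 14.1 FPKM, so the form with the exon had the lower level with DMSO and the higher one with paclitaxel.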

How the data were processed

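RNA of A549 cells given DMSO or paclitaxel was sequenced, 1 library per group. Processing notes of the submitters list TopHat, Cufflinks, CASAVA 1.8.2 and genome build hg38, and the paper names MapSplice and Cufflinks. The FPKM values per transcript were made by the authors and deposited only for transcripts that passed their test. The deposited table also holds log2 fold changes, p-values and q-values, and the event table p-values, FDR and inclusion differences; these are the authors' own comparison and were not used. In the event table, 6 columns of values per library name no condition and were not used. Of the deposited skipped exon events, in a layout of MATS (the paper names MISO), only other information, the identity and coordinates, was used.

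Here, log2 ratios of FPKM were computed in Python 3.11.15 with pandas 2.3.3 and numpy 2.4.6, with no pseudocount and no filter on low values. FPKM keep no whole reads, so depth is unknown and no interval is given. Gene models are from GENCODE 44, in which 948 of 993 listed transcripts were found. TIGAR was matched by its gene ID. The motif search was tested on simulated data. Every listed p53 target is named with its values and every other by name; from the remaining p53 pathway list CDKN1A, MDM2 and the 4 largest ratios were to have values, of which 1 is not reported here, and the gene that was lower was added after its values were seen. The genes and lists were chosen with earlier results of these data known.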

Additional observations from a re-analysis of the deposited data

How the results depend on the processing

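The count of 20 higher and 0 lower p53 target genes was recomputed with summed transcripts, filters on low FPKM, pseudocounts, centring and a 4-fold limit. It was 14 with at least 1 FPKM in both libraries and 16 at 4-fold. None of these alternatives could turn a direction. Filters and the 4-fold limit only remove genes, a pseudocount keeps the sign, and the centring moves every ratio upwards. All listed transcripts of these genes were higher, so their sums were too. Of 127 alternatives 95 moved a value by at most 1.5 times (log2 ratios taken as folds) and 32 by more. Centring on the median of all listed transcripts shifts each log2 ratio by 1.93 upwards (that median is -1.93) and gave a median of 4.45 for the p53 targets; the other alternatives gave 2.14 to 2.57. The centring rests on called transcripts only, most of which were lower. With 1 added to each FPKM, 7 of the 19 single ratios moved, and TRIM22 had 1.91 (3.79 with 0.1 added). With at least 1 FPKM in both libraries, 0 other p53 pathway genes were lower, and 1 of the mitochondrial and other death genes was counted. The motif count was 1 gene with at most 1 mismatch, 7 with at most 3, and 4 with a spacer of up to 13 bases (13.8% against 3.62% of all genes). No paired analysis was possible because each group has 1 library and the labels give no replicate numbers.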
